A study of Danio rerio with 46 samples.

Results

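The genes described here build the mitochondrial respiratory chain of zebrafish (Danio rerio): the nuclear-encoded subunits of complexes I to V, with a few of their assembly factors. They were chosen by name, as the entries of the expression table whose symbol begins with nduf, sdha to sdhd, uqcr, cox4 to cox8 or atp5, and they numbered 87 of 31475 entries. Complex I contributed 33 subunits and 5 assembly factors, complex II 5 subunits and 2 assembly factors, complex III 8, complex IV 15 and complex V 15. Another 3 entries belong to the NDUFA4 family, whose mammalian founder sits in complex IV, and atp5s (dmac2l) lies outside the complexes. Of these names 65 are current symbols, 21 are older ones, given with the current symbol in brackets where they first appear, and ndufa4l2 matched no entry of the name table.

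Heat-exposed fish spent 14 days at 36 °C, from 18 to 32 days post fertilization (dpf), while control fish stayed at 28 °C. All fish, heat-exposed and control, were then kept at 28 °C until sampling. Samples of 6 kinds were hybridised to 1-colour arrays, 46 in all: trunks of juveniles of unknown sex at 37 dpf (10 heat-exposed and 8 control), testes of adults at 90 dpf (10 heat-exposed and 10 control) and ovaries of adults at 90 dpf (4 heat-exposed and 4 control). The labels name no strain and no transgene, and the series' design text calls the arrays of a group biological replicates.

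The respiratory chain passes electrons from NADH (complex I) and succinate (complex II) through ubiquinone, complex III and cytochrome c to oxygen at complex IV, and complex V uses the proton gradient that results to make ATP. Most subunits are encoded in the nucleus, and a small set by the mitochondrial genome. Several subunits of complex IV exist as paralogs, which in mammals are used by different tissues, such as heart and skeletal muscle, lung or testis. Oocytes are known for very large stores of mitochondria, and sperm carry theirs in the midpiece that powers the tail.

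Signals over all entries of the table lay between 3.76 and 15.89 on a log2 scale, and no gene of the set was below the lower quartile of the table in every array. The median correlation between arrays of a group, across all entries, was 0.948 to 0.960 in 5 groups and 0.821 in heat-exposed ovaries. Among heat-exposed ovaries, libraries 2 and 4 stood apart. Their mean over 19 sperm and spermatogenesis markers was 11.95 and 11.84, against 8.26 and 8.19 in heat-exposed ovaries 1 and 3, 11.96 to 12.30 in control testes and 7.88 to 8.30 in control ovaries. Their mean over 19 oocyte markers was 12.67 and 13.04, against 13.96 and 13.92 in heat-exposed ovaries 1 and 3, 8.54 to 10.53 in control testes and 13.64 to 14.08 in control ovaries. Results on heat-exposed ovaries are therefore given with and without them. The control ovaries and testes carried their own markers. All 19 oocyte markers were lower in control testes, and of 19 sperm markers 17 were higher there and 1 lower.

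The first comparison, between the gonads of control adults, shows which subunits and paralogs differ by sex. Testes had more of several complex IV subunits, of 1 membrane anchor of complex II and of 12 complex I subunits, and ovaries had more of another complex II anchor, of ndufs8a and of 3 complex V membrane genes. With limma and Benjamini-Hochberg adjustment over all entries, 28 of the 87 genes passed as higher in testis and 11 as lower, and 48 did not pass. Of all entries in the table, 29.6 percent passed as higher in testis and 30.8 percent as lower (60.3 percent in either direction). The share of the 87 that was higher, 32.2 percent, was near that background, and the share that was lower, 12.6 percent, was below it. The median log2 fold change over the 87 was 0.20, against 0.01 over all entries. For 25 of the 87 genes every testis lay above every ovary, where 5990 of 31475 entries (19 percent) did so. For 7 of the 87 every testis lay below, where 6720 of 31475 entries (21.4 percent) did so.

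These counts depend on how the arrays are scaled. Centring each array on its own median moved the contrast of every entry by -0.17, after which 21 of the 87 were higher and 15 lower and their median was 0.02, against -0.17 over all entries. Of all entries 25.8 percent were higher after centring and 35.1 percent lower. Quantile normalization of the adult control arrays once more gave 25 higher and 12 lower, where 27.1 percent of all entries were higher and 33.2 percent lower. In whole gonads, more cells of a type and more RNA per cell cannot be told apart.

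**Figure D1:**
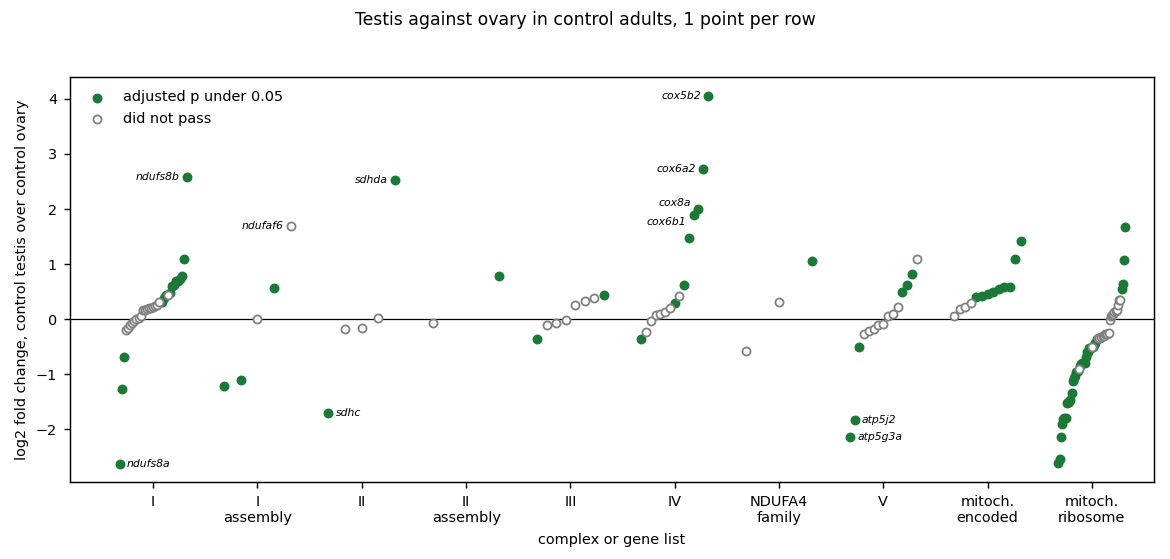
Log2 fold change of control testes (10) over control ovaries (4) for each gene, grouped by complex, with mitochondrially encoded genes and mitochondrial ribosomal proteins beside them. Filled points passed at an adjusted p under 0.05 and open points did not. Complex IV holds the point farthest above 0, cox5b2 at 4.06, and mitochondrial ribosomal proteins lie mostly below 0; atp5s is not drawn.

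Complex IV, cytochrome c oxidase, held the largest differences. Of its 15 subunits 7 were higher in testis (46.7 percent) and 1 was lower (6.67 percent). Of all entries 29.6 percent were higher and 30.8 percent lower. Subunit Vb, which lies on the matrix side of the enzyme, was represented by cox5b2. Its signal was 14.95 at the lowest, 15.10 at the median and 15.20 at the highest in control testes, against 10.30, 11.36, 10.48 and 11.95 in control ovaries. The groups did not overlap, and testes varied far less (SD 0.09, n = 10) than ovaries (SD 0.78, n = 4). The log2 fold change was 4.06 ± 0.24 (SE, limma adjusted p = 5.7e-10), a 16.6-fold difference.

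Subunit VIa is encoded by cox6a1, used widely in mammals, and cox6a2, the heart and skeletal muscle form there. Testes had cox6a2 at 10.96 at the lowest, 11.79 at the median and 12.38 at the highest, against 8.49, 9.20, 8.74 and 9.62 in ovaries. The groups did not overlap, and the log2 fold change was 2.73 ± 0.25 (SE, limma adjusted p = 9.7e-08). Its paralog cox6a1 averaged 14.45 in testes and 14.36 in ovaries, with a log2 fold change of 0.09 and a 95% interval from -0.19 to 0.37 that did not pass.

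Subunit VIb is encoded by cox6b1, the widely used form in mammals, and cox6b2, the testis form there. In these zebrafish gonads cox6b1 had the larger difference. Its signal was 14.04 ± 0.16 in testes (SD, n = 10), against 11.62, 12.28, 11.55 and 13.13 in ovaries, and no ovary reached the lowest testis at 13.79. The log2 fold change was 1.89 (limma adjusted p = 3.7e-06) for cox6b1 and 0.30 (limma adjusted p = 0.0414) for cox6b2.

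The small membrane subunit VIII, cox8a, had 13.51 ± 0.10 in testes (SD, n = 10), against 11.26, 11.21, 11.65 and 11.91 in ovaries, a 4.01-fold difference (limma adjusted p = 1.0e-08). Subunit IV is encoded by cox4i1, the usual form, and cox4i2, in mammals the lung-enriched form that responds to oxygen. Signals of cox4i2 ran from 10.74 through a median of 11.52 to 13.28 in testes, against 9.76, 10.27, 10.13 and 10.64 in ovaries, so the groups lay close but did not overlap. Testes 5 and 10, at 13.28 and 12.78, carried the highest values. Its log2 fold change was 1.47 (limma adjusted p = 0.0046), and that of cox4i1 was 0.13 (adjusted p = 0.40). The 1 complex IV gene that was lower in testis was cox7a3 (cox7a2l), linked in mammals to respiratory supercomplexes, with a log2 fold change of -0.36 (limma adjusted p = 0.0275).

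Complex II, succinate dehydrogenase, is anchored in the inner membrane by the SDHC and SDHD proteins. The anchors moved in opposite directions. Gene sdhda had 10.23 at the lowest, 11.26 at the median and 11.92 at the highest in testes, against 8.19, 8.72, 9.01 and 9.20 in ovaries. No ovary reached the lowest testis, and the log2 fold change was 2.53 ± 0.28 (SE, limma adjusted p = 8.8e-07). Its paralog sdhdb averaged 12.17 ± 0.19 in testes (SD, n = 10) and 12.32 ± 0.16 in ovaries (SD, n = 4) and did not pass (limma adjusted p = 0.38). The other anchor, sdhc, had 10.53 at the lowest, 11.39 at the median and 11.75 at the highest in testes, against 13.30, 12.62, 13.22 and 12.83 in ovaries. Here every testis lay below every ovary, and the log2 fold change was -1.70 (limma adjusted p = 6.4e-06). The catalytic subunits sdha and sdhb had log2 fold changes of 0.03 and -0.17 and did not pass.

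Complex I, NADH dehydrogenase, had 12 of 33 subunits higher in testis and 3 lower. These were 36.4 and 9.09 percent, where 29.6 percent of all entries were higher and 30.8 percent lower. Most of the differences of these subunits were under 1 log2 unit. The accessory subunit gene ndufa8 was at 14.42 ± 0.08 in testes (SD, n = 10) and 13.32 ± 0.06 in ovaries (SD, n = 4), with no overlap and a log2 fold change of 1.09 (limma adjusted p = 8.4e-07). Smaller log2 fold changes were those of ndufb6 at 0.79, the acyl carrier protein gene ndufab1a at 0.73, ndufs4 at 0.70 and ndufs7 at 0.69. Another of the 12, ndufs8b, is described separately below because it was chosen for its pattern on these arrays. Its part in this count, and in the count over the whole set, is therefore no support.

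Lower in testis were ndufs8a, ndufa5 and the NADH-binding subunit ndufv1. The iron-sulfur subunit gene ndufs8a had the lowest fold change of the set. Testes had 8.90 at the lowest, 9.81 at the median and 10.49 at the highest, against 11.91, 12.42, 12.64 and 12.64 in ovaries, and the groups did not overlap. Its log2 fold change was -2.63 ± 0.29 (SE, limma adjusted p = 1.0e-06), those of ndufa5 and ndufv1 were -1.27 and -0.68. Among the complex I assembly factors ndufaf1 was higher in testis (0.56), and ndufaf2 and ndufaf4 were lower (-1.21 and -1.10).

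Complex III, which hands electrons to cytochrome c, differed little: 1 of 8 subunits was higher in testis, uqcrb at 0.43 (limma adjusted p = 0.0119), and 1 was lower, the Rieske iron-sulfur protein gene uqcrfs1 at -0.36 (limma adjusted p = 0.0484). Of all entries 29.6 percent were higher and 30.8 percent lower, where complex III had 12.5 percent each way. Complex V, ATP synthase, had 3 of 15 higher and 3 lower (20 percent each way). Higher were both subunit e genes, atp5ia (atp5mea) at 0.83 and atp5ib (atp5meb) at 0.50, and the stalk subunit gene atp5h (atp5pd) at 0.63. Lower were atp5g3a (atp5mc3a) and atp5g1 (atp5mc1), which encode the rotating c ring, and atp5j2 (atp5mf), the membrane subunit f.

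The c-ring gene atp5g3a had 7.61 at the lowest, 7.87 at the median and 8.11 at the highest in testes, against 10.19, 9.93, 10.11 and 9.85 in ovaries. Both groups were tight and did not overlap, and the log2 fold change was -2.14 ± 0.14 (SE, limma adjusted p = 2.6e-09). Signals of atp5j2 were 9.66 at the lowest, 10.16 at the median and 10.94 at the highest in testes, against 12.33, 12.32, 11.29 and 12.15 in ovaries, a log2 fold change of -1.84 (limma adjusted p = 8.9e-06). The F1 head subunit genes atp5a1 (atp5fa1) and atp5b (atp5f1b) had log2 fold changes of -0.22 and -0.28 that did not pass. In the NDUFA4 family ndufa4 (ndufa4b) was higher in testis (1.06, limma adjusted p = 0.0037) and the other two did not pass.

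Paralogs were then compared within arrays, as the signal of 1 paralog minus that of the other. A shift common to all signals of an array then cancels, while a scaling that depends on signal level does not. The size of such a difference depends on the probes, and only its change between tissues is read. In all, 10 pairs were tested between control testes and control ovaries with a two-sided exact permutation test over 1001 assignments, adjusted over the 10 pairs, and 7 passed. In 4 pairs the testis and ovary values did not overlap, each with an exact p of 0.000999, the smallest these groups can give, and an adjusted p of 0.0025. Those were sdhda minus sdhdb, with a change of 2.69, cox6a2 minus cox6a1, with 2.64, cox6b1 minus cox6b2, with 1.59, and atp5g3a minus atp5g3b (atp5mc3b), with -2.05.

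For sdhda minus sdhdb the difference averaged -0.86 ± 0.56 in testes (SD, n = 10) and -3.54 ± 0.54 in ovaries (SD, n = 4). For atp5g3a minus atp5g3b it averaged -1.72 ± 0.27 in testes (SD, n = 10) and 0.33 ± 0.21 in ovaries (SD, n = 4). Smaller changes with overlapping values passed for cox4i2 minus cox4i1 (1.34, exact adjusted p = 0.0214), ndufab1a minus ndufab1b (0.49, exact adjusted p = 0.0214) and atp5ia minus atp5ib (0.33, exact adjusted p = 0.02). The other 3 pairs did not pass: ndufa4 minus ndufa4l (ndufa4a), at 0.75 (exact adjusted p = 0.0649), cox7a1 minus cox7a2 (cox7a2a), at 0.21 (0.49), and uqcrc2a minus uqcrc2b, at 0.03 (0.83). Signals of cox7a1 averaged 6.11 in control testes and 5.69 in control ovaries. Both means lay below the lower quartile of all entries there (at least 6.22 and 6.05), where a signal near background limits the difference.

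Other mitochondrial genes, taken from lists chosen with earlier results of these data known, behaved differently from 1 list to the next. Of 13 measured genes of the mitochondrial genome, which encode core subunits of complexes I, III, IV and V, 9 were higher in testis and none was lower, with a median log2 fold change of 0.47. The largest were mt-nd3 at 1.42 and mt-nd4l at 1.09, and after median centring 5 were higher and the median was 0.29. Of 57 mitochondrial ribosomal proteins, which translate those genes, 4 were higher and 32 lower (median -0.51), with mrpl18 at -2.60 and mrpl16 at -2.53.

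A list of 39 further respiratory chain genes, mostly assembly factors and ubiquinone synthesis enzymes, had 5 higher and 20 lower (median -0.48). Among them cox17, the copper chaperone of complex IV, had a log2 fold change of -2.72, tmem70, an assembly factor of complex V, had -2.10, and coq4, which takes part in ubiquinone synthesis, had -2.03. Of 23 genes of the TCA cycle and its entry 5 were higher and 9 lower, and the higher ones included 3 kinases that switch off pyruvate dehydrogenase, pdk3a at 4.28, pdk3b at 2.73 and pdk4 at 1.96. Glycolysis had 15 of 35 higher and 8 lower, led by aldoab at 4.69 and pkmb at 4.20. Of 40 biogenesis and carrier genes 6 were higher, with ppargc1a at 2.04, and 15 were lower, with the related coactivator pprc1 at -3.87 and the import channel gene tomm40 at -2.40.

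Markers of other tissues moved with sex as well. Of 27 skeletal muscle markers 20 were higher in testis and none was lower, and their mean signal per array was 8.22 to 10.60 in control testes against 7.19 to 7.51 in control ovaries. In testes 5 and 10, which carried the most cox4i2, that mean was 10.53 and 8.22. Of 11 erythrocyte markers 8 were higher and 1 lower, of 19 liver markers 12 and 1, and of 24 neural markers 13 and 2. Testis somatic markers had 7 of 13 higher and 2 lower, ovarian follicle markers 5 of 11 and 4, kidney markers 4 of 10 and 1, intestine markers 2 of 7 and 1, and heart muscle markers 1 of 8 and 1. With the muscle mean of each array as a covariate, a setting chosen after seeing the data, 15 of the 87 genes were higher in testis and 4 lower, all among the first 39. Calls over the whole table fell as well, to 17.9 percent of all entries higher and 17.9 percent lower, from 29.6 and 30.8 percent. In that fit cox5b2, cox6a2, cox6b1, cox8a, sdhda, sdhc, ndufs8a, atp5g3a and atp5j2 passed, while cox4i2 (1.30, limma adjusted p = 0.21) and ndufaf1 (0.63, limma adjusted p = 0.0531) did not. The muscle mean itself differed between testes and ovaries without overlap. That fit therefore cannot separate sex from the muscle markers, for the genes that passed or for those that did not. The part of the erythrocyte, liver and neural markers in these results was not tested.

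The second comparison asks whether early heat changed these genes in adult ovaries. With all 4 heat-exposed ovaries no gene of the 87 passed, and no entry of the table did either (0 percent). Without ovaries 2 and 4, 1 of the 87 passed, as higher, and none as lower. That gene was ndufs8b, chosen for its rise in these ovaries, so the count is no support. Of all entries 0.00318 percent were then higher and 0.0222 percent lower. With all 4, 2 of 87 genes and 3334 of all entries had an unadjusted p under 0.05. The 2 genes were cox5b2 and ndufs8b, and the choice of ndufs8b for its rise here makes its part in this count no support. The median log2 fold change was 0.08 for the 87 and -0.06 for all entries, and the 95% interval of a typical gene reached 0.60 to either side in these 8 arrays.

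Behind these wide intervals, heat-exposed ovaries split by library in the genes that differ by sex. Gene cox5b2 had 11.71, 15.13, 11.49 and 14.85 in heat-exposed ovaries 1 to 4, against 10.30, 11.36, 10.48 and 11.95 in control ovaries. Ovaries 2 and 4 lay at the level of testes, and ovaries 1 and 3 lay within the range of control ovaries. The pattern recurred in cox6a2, with 8.89, 11.62, 9.09 and 11.71 in heat-exposed ovaries, and in cox8a, with 11.23, 13.44, 11.42 and 13.13. Genes higher in ovary ran the opposite way: atp5g3a had 9.68, 7.96, 10.09 and 7.94 in heat-exposed ovaries, against 10.19, 9.93, 10.11 and 9.85 in control ovaries, and sdhc had 13.21, 11.42, 13.26 and 11.99, against 13.30, 12.62, 13.22 and 12.83. Ovaries 1 and 3 did not match control ovaries in every gene that differs by sex. Both lay above all control ovaries for atp5j2 (mean difference 0.50) and below all for ndufab1a (-0.33). For sdhda their mean difference from control ovaries was -1.055, and 1 of them lay below all control ovaries.

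Each gene can be placed on a scale on which the mean of control ovaries is 0 and the mean of control testes is 1. Over 9 genes of the set that passed as higher in testis by at least 1 log2 unit, ndufs8b left out, the median place of heat-exposed ovaries 1 to 4 was -0.04, 0.96, 0.02 and 0.95. All 9 lay nearer to testis in ovaries 2 and 4, as did 79.5 and 81.3 percent of the 7506 other entries of that kind. Over 7 genes higher in ovary the median place was 0.04, 0.93, -0.08 and 0.59, and 7 of 7 in ovary 2 and 6 of 7 in ovary 4 lay nearer to testis. Of the 6984 other entries of that kind 83.9 and 81.0 percent did so, with median places of 0.86 and 0.75. The 7506 other entries higher in testis had median places of 0.83 and 0.82 in ovaries 2 and 4. Most entries that differ by sex thus lay nearer to testis in ovaries 2 and 4, as most of these genes did, though not at the same median place.

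**Figure D2:**
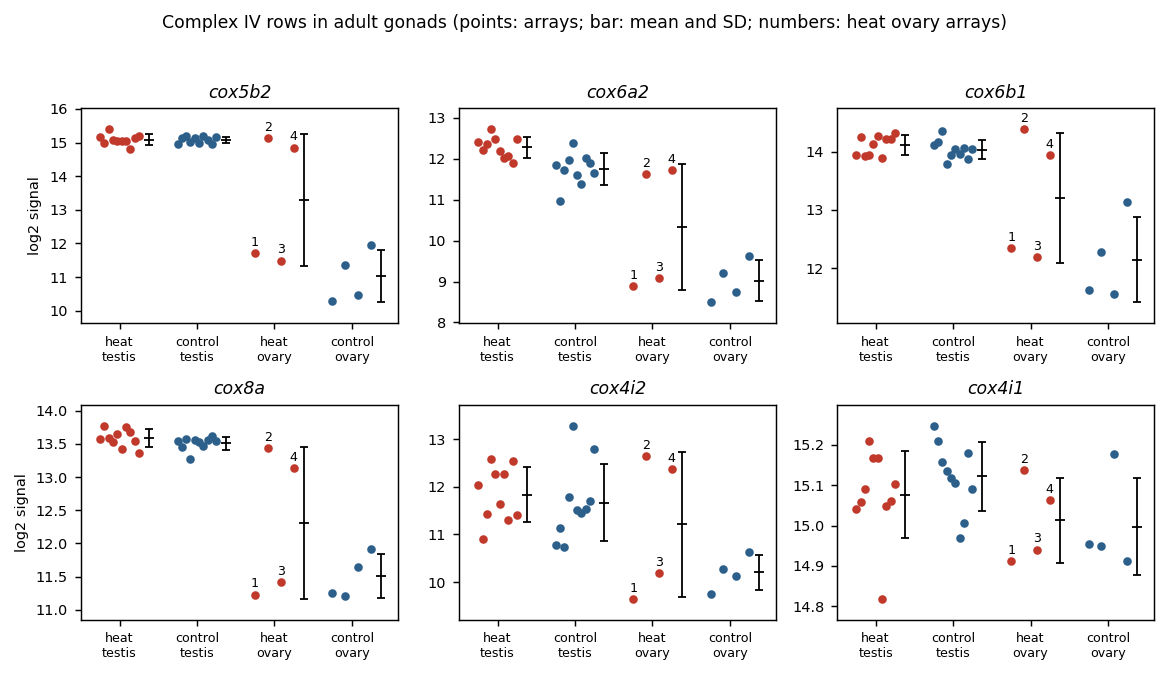
Log2 signal of 6 complex IV genes in adult gonads, with each array as a point, mean and SD as a bar, and heat-exposed ovaries numbered. Heat-exposed ovaries 2 and 4 stand at the testis level for cox5b2, cox6a2, cox6b1, cox8a and cox4i2, and ovaries 1 and 3 at the ovary level. The cox4i1 panel covers a much narrower range of signal.

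One gene went against this pattern. The complex I iron-sulfur subunit gene ndufs8b was chosen because it stood high in heat-exposed ovaries, so its values there are a description and carry no test. It had 12.07, 8.45, 11.95 and 10.67 in heat-exposed ovaries 1 to 4, against 5.14, 4.77, 4.89 and 4.70 in control ovaries. Every heat-exposed ovary lay above every control ovary, and the difference of means was 5.91 on the log2 scale. That order of the arrays held for 4 of the 87 genes, ndufs8b among them. How often such an order of the arrays occurs over all entries was not computed. The difference was larger in ovaries 1 and 3 (7.13) than in ovaries 2 and 4 (4.68). For cox5b2 it was the opposite, with differences of 0.58 and 3.97.

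The same gene also reached high signals in other tissues. Its values fell into a high and a low range within groups, with none between 6.51 and 8.45. Above a log2 signal of 8 were 4 of 10 heat-exposed testes (8.88 to 9.95), 4 of 10 control testes (10.00 to 10.47), none of 10 heat-exposed trunks (4.56 to 5.90) and 3 of 8 control trunks (9.41, 8.50 and 9.66). High and low arrays thus occurred in both temperature groups of testes and among control trunks, and neither group of ovaries mixed both ranges. The low level in control ovaries rests on 4 arrays.

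Its paralog ndufs8a had 12.30, 10.41, 12.61 and 10.89 in heat-exposed ovaries, against 11.91, 12.42, 12.64 and 12.64 in control ovaries, so ovaries 2 and 4 were low and 1 and 3 lay in or near the control range. In ovaries 1 and 3, which had the most ndufs8b, ndufs8a was 0.05 above the control mean on average. Among entries with a gene symbol, the signals most like ndufs8b over the 28 adult arrays were psmb2 (Pearson r = 0.61), atp10a (0.57), padi2 (0.53), ssu72 (0.51) and psmd14 (0.51), and the clone-named entry si:dkey-102m7.3 reached 0.72. These correlations describe arrays that share tissue and sex, and they carry no p.

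**Figure D3:**
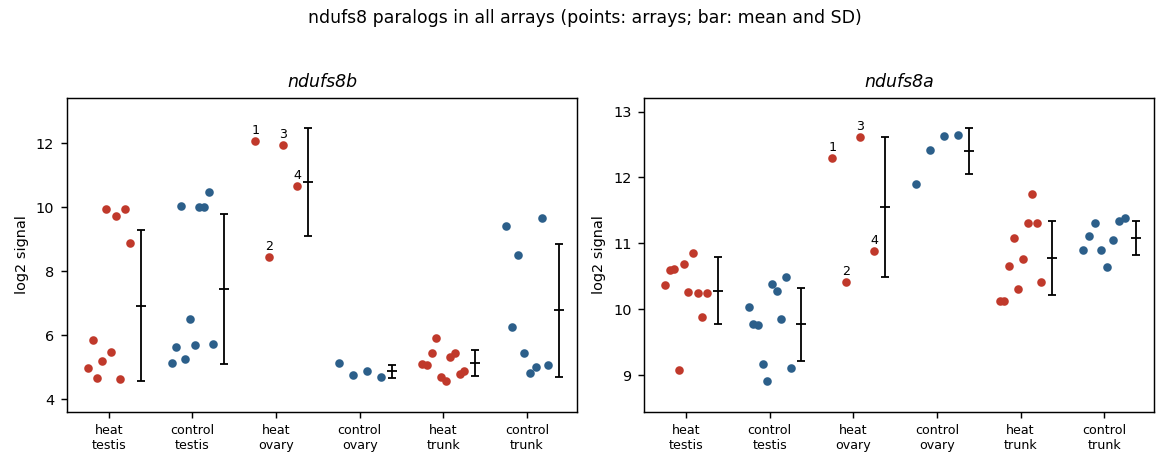
Log2 signal of ndufs8b (left) and ndufs8a (right) in all 46 arrays, with heat-exposed ovaries numbered and mean and SD as a bar. For ndufs8b all 4 heat-exposed ovaries lie above 8 and all 4 control ovaries near 5, while testes of both temperature groups and control trunks hold arrays in both ranges.

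In adult testes, heat exposure left no detectable change in the set. None of the 87 genes passed, where 0.0635 percent of all entries did (0.054 percent higher and 0.00953 percent lower), and 5 of 87 had an unadjusted p under 0.05, as did 3672 of all entries. The median log2 fold change was 0.03, against 0.02 over all entries, 82 of 87 genes changed by less than 0.5, and the 95% interval of a typical gene reached 0.21 to either side. The gene with the smallest p was cox6a2, with 11.91 at the lowest, 12.28 at the median and 12.72 at the highest in heat-exposed testes, against 10.96, 11.79 and 12.38 in control testes. Its log2 difference of 0.54 did not pass (limma adjusted p = 0.17), and the groups overlapped. Next were uqcr11 (si:ch1073-325m22.2), atp5g3a, atp5j2 and ndufs8a, with log2 differences of 0.23, -0.28, 0.46 and 0.51 and adjusted p of 0.30 to 0.40.

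Cytochrome c oxidase gene cox5b2 was nearly constant, at 15.09 ± 0.16 in heat-exposed testes and 15.08 ± 0.09 in control testes (SD, n = 10 each). The sex-dependent anchor sdhda averaged 11.48 ± 0.58 in heat-exposed testes and 11.31 ± 0.49 in control testes (SD, n = 10 each). Muscle markers averaged 9.01 in heat-exposed testes and 9.54 in control testes, and 0 of 27 passed.

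Whether heat acted differently in ovaries and testes was tested as an interaction over the 28 adult arrays. No gene of the 87 passed, where 1.21 percent of all entries did, and 8 had an unadjusted p under 0.05, as did 6696 of all entries. The largest interaction apart from ndufs8b was that of cox5b2, 2.27 (limma adjusted p = 0.0566), where ovaries 2 and 4 carried the difference given above. Without heat-exposed ovaries 2 and 4, again no gene of the 87 passed, where 0.054 percent of all entries were higher and 0.0604 percent lower. Without heat-exposed ovary 1, 4 genes were higher and 2 lower, where 8.62 percent of all entries were higher and 6.68 percent lower. Without heat-exposed ovary 3, 3 were higher and 2 lower, where 7.61 percent of all entries were higher and 6.36 percent lower. One of the higher genes was ndufs8b both without ovary 1 and without ovary 3.

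In juvenile trunks 5 days after the end of the exposure, 5 of the 87 genes were higher after heat and 1 was lower, where 8.59 percent of all entries were higher and 5.96 percent lower. The count of higher genes moved with the fit. It was 10 of 85 without dim entries, where 11.6 percent of all entries kept were higher, and 17 of 87 with an intensity trend in the variance, where 8.99 percent of all entries were. The genes were the complex II anchors sdhda and sdhc, the complex IV subunit genes cox8a and cox4i2, the acyl carrier protein gene ndufab1a and the complex I assembly factor gene ndufaf1. All changes but 1 were small. Over the 87 genes the median log2 fold change was 0.10, against 0.04 over all entries, and 83 changed by less than 0.5.

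Signals of sdhda were 9.38 at the lowest, 9.79 at the median and 10.18 at the highest in heat-exposed trunks, against 7.86, 8.79 and 9.21 in control trunks. Every heat-exposed trunk lay above every control trunk, which held for 1 of the 87 genes and for 0.616 percent of all entries. None of the 87 had every heat-exposed trunk below every control trunk, where 0.499 percent of all entries did. The log2 fold change was 1.05 ± 0.19 (SE, limma adjusted p = 0.0012). Its paralog sdhdb averaged 13.61 ± 0.11 in heat-exposed trunks (SD, n = 10) and 13.66 ± 0.10 in control trunks (SD, n = 8), a log2 difference of -0.05 that did not pass (limma adjusted p = 0.74).

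The other anchor gene, sdhc, was the 1 that was lower. It had 10.24 at the lowest, 10.57 at the median and 10.92 at the highest in heat-exposed trunks, against 10.52, 11.34 and 11.65 in control trunks, a log2 fold change of -0.56 (limma adjusted p = 0.0311). Control trunks 2, 4 and 6, at 10.71, 10.52 and 10.52, lay within the range of heat-exposed trunks, and the other 5 control trunks, at 11.34 to 11.65, lay above it. The same 3 control trunks were the poorest in oocyte markers, with a mean of 9.19, 9.16 and 11.62 over 19 markers against 13.09 to 13.66 in the other 5, and heat-exposed trunks had 6.66 to 9.47. With this mean as a covariate the sdhc difference turned to 0.30 (limma adjusted p = 0.59). The mean itself differed with heat, so that fit cannot separate heat from the oocyte markers.

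The remaining genes rose by less. Complex IV gene cox8a had a log2 fold change of 0.39 (limma adjusted p = 0.0130), with 13.49 to 13.93 in heat-exposed trunks and 13.16 to 13.71 in control trunks. For cox4i2 the change was 0.40 (limma adjusted p = 0.0434), with 13.48 to 14.15 in heat-exposed trunks and 12.83 to 13.73 in control trunks. For ndufab1a it was 0.37 (limma adjusted p = 0.0184), and for ndufaf1 0.36 (limma adjusted p = 0.0164). In each of these 4 genes the groups overlapped.

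**Figure D4:**
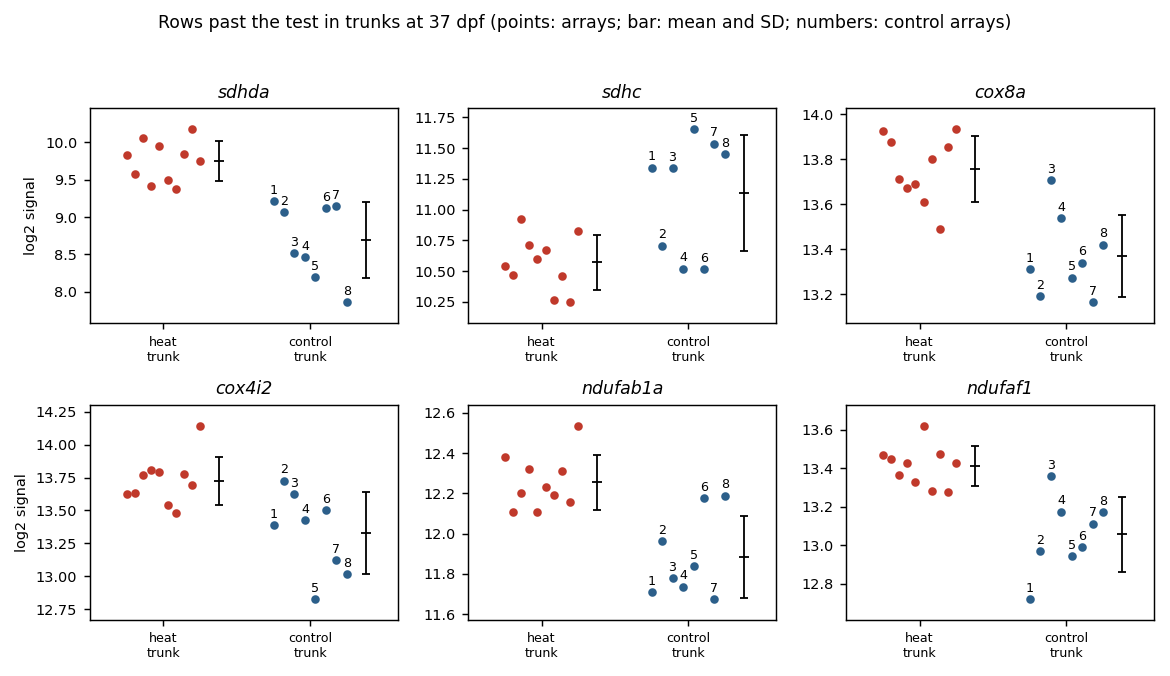
Log2 signal of the 6 genes that passed in juvenile trunks, heat-exposed (10) beside control (8), with control trunks numbered and mean and SD as a bar. Only for sdhda do the groups not overlap, and for sdhc control trunks 2, 4 and 6 lie among the heat-exposed ones.

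All 6 genes had the same sign as in the comparison of testis with ovary: those higher after heat were higher in testis, and sdhc was lower in both. Of all entries that passed in both comparisons 2375 of 3173 (74.9 percent) shared the sign. Other genes with large sex differences did not follow in trunks: cox5b2 averaged 14.88 ± 0.23 in heat-exposed trunks (SD, n = 10) and 15.02 ± 0.12 in control trunks (SD, n = 8), and cox6a2 12.64 ± 0.33 in heat-exposed trunks (SD, n = 10) and 13.01 ± 0.22 in control trunks (SD, n = 8), without passing.

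A trunk can hold gonad, muscle, gut, kidney, nerve and blood together, and markers of several of these changed with heat. All 19 oocyte markers were lower, 6 of 8 heart muscle markers were higher (mean 9.42 to 11.77 in heat-exposed trunks, 7.64 to 10.20 in control trunks), and 13 of 24 neural markers were higher and 1 lower (mean 10.11 to 11.49 in heat-exposed trunks, 9.48 to 10.43 in control trunks). Of 27 skeletal muscle markers 4 were higher and 4 lower, and 4 of 11 erythrocyte markers were higher. Sperm and spermatogenesis markers had 8 of 19 higher and 2 lower, testis somatic markers 1 of 13 and 3, and ovarian follicle markers 0 of 11 and 2. Kidney markers had 2 of 10 higher and 0 lower, liver markers 0 of 19 and 1, and intestine markers 0 of 7 and 0. With the oocyte mean or the neural mean of each array as a covariate none of the 6 genes passed. Adjusted p was then 0.21 or more for the oocyte mean and 0.0957 or more for the neural mean. Few entries of the whole table passed in these fits either. With the oocyte mean 0.604 percent of all entries were higher and 0.318 percent lower, and with the neural mean 1.03 and 1.14 percent. Both means differed between heat-exposed and control trunks, so these fits cannot separate heat from the markers. Under the oocyte covariate the log2 differences were 0.89 for sdhda, 0.49 for cox8a, 0.40 for ndufab1a, 0.35 for ndufaf1, 0.02 for cox4i2 and 0.30 for sdhc. Under the neural covariate they were 0.77 for sdhda, 0.24 for cox8a, 0.38 for ndufab1a, 0.35 for ndufaf1, 0.18 for cox4i2 and -0.60 for sdhc. With the skeletal muscle mean as a covariate sdhda, cox8a, ndufab1a and ndufaf1 passed, where 7.86 percent of all entries were higher and 5.66 percent lower. The part of the other marker lists, heart muscle and erythrocyte among them, was not tested.

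Leaving out 1 trunk at a time kept sdhda, cox8a, ndufab1a and ndufaf1 past the threshold in all 18 fits. The call of sdhc was lost without any 1 of control trunks 1, 3, 5, 7 or 8 (adjusted p up to 0.0701), with log2 differences from -0.65 to -0.49 over the 18 fits. The call of cox4i2 was lost in 13 of 18 fits (adjusted p up to 0.0946), with log2 differences from 0.32 to 0.45.

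The mitochondrial genes outside the set changed little in trunks. None of the 13 genes of the mitochondrial genome passed, and their mean signal was 15.17 to 15.35 in heat-exposed trunks and 15.18 to 15.33 in control trunks. Mitochondrial ribosomal proteins had 3 of 57 higher, led by mrps10 at 0.60. Of the 39 further respiratory chain genes 3 were higher, with etfa, which feeds electrons from fatty acid oxidation to ubiquinone, at 0.89. Glycolysis had 6 of 35 higher and 1 lower, led by aldoca at 1.67 and eno2 at 1.38, both also expressed in neurons.

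Some genes of the set had single arrays far below the rest of their group. The complex I assembly factor gene ndufaf6 had 6.07 in heat-exposed testis 7 where the other 9 had 13.14 to 13.68. Heat-exposed ovary 3 had 8.66, where the other 3 had 12.79 to 13.56, and control ovary 3 had 7.39, where the other 3 had 13.07 to 13.60. The complex III core protein gene uqcrc2b had 10.35 and 6.56 in heat-exposed testes 8 and 10, against 12.62 to 13.34 in the other 8 and 12.97 to 13.47 in control testes. These low arrays make the mean difference of uqcrc2b between heat-exposed and control testes -1.23 (limma adjusted p = 0.46), and the medians were 12.84 and 13.27.

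**Figure D5:**
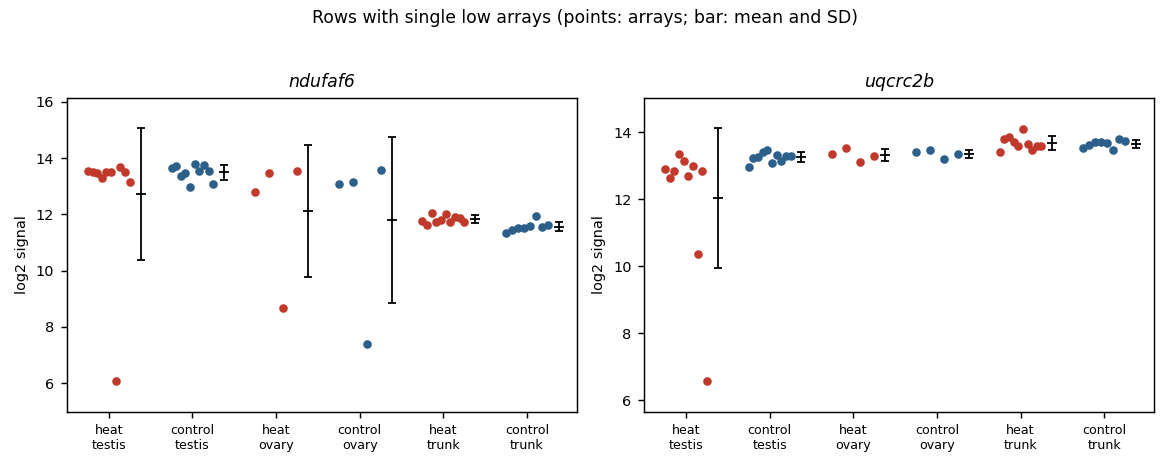
Log2 signal of ndufaf6 (left) and uqcrc2b (right) in all 46 arrays, with mean and SD as a bar. Single arrays lie far below their group: heat-exposed testis 7, heat-exposed ovary 3 and control ovary 3 for ndufaf6, and heat-exposed testes 8 and 10 for uqcrc2b.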

How the data were processed

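Expression was measured in 46 one-colour NimbleGen arrays, 1 per sample, from Trizol RNA after whole-transcriptome amplification and Cy3 labelling, per the labels' protocols. The deposited values are log2 signals. The submitters' processing notes name RMA, which corrects for background, applies quantile normalization and combines the probes of an entry into 1 value. No version, annotation or set of arrays normalized jointly is given in the sources used here, and the log base was taken from the range of values. Quantile normalization can hide a shift shared by most genes, and amplification can alter differences between samples. Juvenile controls number 8 in the labels used here and 10 in the design text. No batch is labelled, so none was tested. The number of arrays limits the precision.

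All 31475 entries entered each fit without a filter, by lmFit and eBayes of limma 3.58.1 under R 4.3.3, on the arrays of the groups compared, two-sided, with Benjamini-Hochberg adjustment over all entries and a threshold of 0.05. A log2 fold change is the mean of heat-exposed minus that of control arrays, or of testis minus ovary. The interaction came from 1 fit of the 28 adult arrays. The fits were tested on simulated data. Names were matched to a RefSeq gene table of assembly GRCz12tu, for names only. Near-identical paralogs may share hybridization, so a value for 1 is uncertain by the other.

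The members and the lists were chosen with earlier results of these data known. Genes named are paralogs and, per comparison, up to 10 past the threshold in each direction (where fewer than 5 passed, the 5 smallest p). Also named are ndufs8a and ndufs8b with the 5 gene symbols most correlated with ndufs8b, and up to 4 of each other list. Catalytic subunits, F1 head subunits and the ndufaf6 and uqcrc2b outliers were named after their values were seen. The marker lists were oocyte, sperm, testis somatic, ovarian follicle, skeletal muscle, heart muscle, neural, liver, intestine, erythrocyte and kidney. Alternatives were repeated quantile normalization, median centring, leaving out dim entries, an intensity trend, array weights, a replicate block, 1 fit of all 46 arrays, marker covariates and leaving out arrays.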

Additional observations from a re-analysis of the deposited data

Results flagged for a closer look

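Over 15 genes, 90 groups of arrays were screened for a lowest or highest array set off from its group by more than Dixon's 95% critical value, and 12 were found. Of these, 5 belonged to ndufaf6 and uqcrc2b, which were put into the screen because such arrays had been seen, so they are a description. The other 13 genes gave 7 in 78 groups, where chance gives about 1 in 20. The 3 widest gaps belonged to ndufaf6, the complex I assembly factor gene: heat-exposed testis 7 at 6.07, control ovary 3 at 7.39 and heat-exposed ovary 3 at 8.66. Control trunk 6 also stood off for ndufaf6, high at 11.93. For uqcrc2b, a core protein of complex III, heat-exposed testis 10 lay at 6.56, with heat-exposed testis 8 next at 10.35.

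The other arrays set off from their group differed by less. Among trunks they were heat-exposed trunk 10 for cox4i2 at 14.15, heat-exposed trunk 2 for atp5g3a at 9.16, control trunk 6 for cox5b2 at 15.27 and control trunk 5 for cox6b1 at 14.29. Among testes they were heat-exposed testis 4 for atp5j2 at 9.60, control testis 4 for cox8a at 13.27 and control testis 5 for sdhda at 10.23.

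The difference between heat-exposed and control samples ran in opposite directions for ndufs8b in ovaries, 5.91 on the log2 scale, and in trunks, -1.65. This gene was chosen for its rise in heat-exposed ovaries, so the contrast is a description. In trunks the difference did not pass (limma adjusted p = 0.0795). Every heat-exposed ovary lay above the mean of control ovaries and every heat-exposed trunk below the mean of control trunks. That trunk mean, 6.78, was raised by 3 of 8 control trunks above a signal of 8. The other control trunks lay at 6.25 or lower, and heat-exposed trunks at 5.90 or lower. The difference between the tissues was not tested.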

How the results depend on the processing

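In the comparison of testis with ovary, counts of 28 higher and 11 lower ranged from 25 to 29 and from 9 to 11 when 1 array was left out. Their highest values were 37 higher with an intensity trend (29.8 percent of all entries) and 15 lower with median centring (35.1 percent). The counts were 13 and 7 with a replicate block and 15 and 4 with the muscle covariate. Of all entries 25.2 percent were higher and 24.6 percent lower with the replicate block, and 17.9 percent in each direction with the muscle covariate. The 7 paralog pairs ranged from 6 to 8 when 1 array was left out, and were 7 after repeated quantile normalization.

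In trunks the count of higher genes was 10 without dim entries, 17 with an intensity trend, 1 with a replicate block (sdhda), 1 in a fit of all 46 arrays (ndufaf1), 0 with the oocyte or the neural covariate and 1 without heat-exposed trunks 1, 2 and 10 (sdhda). It ranged from 4 to 6 when 1 array was left out. Of all entries 11.6 percent were higher without dim entries, 8.99 percent with an intensity trend and 6.1 percent with the replicate block. The share was 5.73 percent in the fit of all arrays, 0.604 percent with the oocyte covariate and 1.03 percent with the neural one. Without heat-exposed trunks 1, 2 and 10 it was 5.26 percent. The count of lower genes was 0 in the fit of all arrays, with the oocyte, muscle or neural covariate and without heat-exposed trunks 1, 2 and 10, and ranged from 0 to 2 when 1 array was left out, with 2 without heat-exposed trunk 6 or 9. For sdhc the oocyte covariate gave 0.30. With the replicate block atp5j2 was the 1 lower gene (-0.51).

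In ovaries 1 gene was higher with array weights, 1 without heat-exposed ovaries 2 and 4 and 1 without ovary 2, and other omissions of 1 array gave 0. Where 1 gene was higher, 0.00318 percent of all entries were higher, and 0.00953, 0.0222 and 0 percent were lower, in that order. Each time the gene was ndufs8b, chosen for this rise, so these counts are no support. The fit of all 46 arrays, which shares 1 estimate of spread over all groups, gave 6 higher and 2 lower. Of all entries 8.83 percent were higher in that fit and 6.64 percent lower. In testes every setting gave 0, also without heat-exposed testes 8 and 10. For the interaction 1 gene was higher with median centring, 2 without dim entries, 2 with an intensity trend and 1 with a replicate block. Again ndufs8b was among them, and the other was cox5b2. In these settings 0.858, 1.25, 0.896 and 0.197 percent of all entries were higher, in that order. Without heat-exposed ovaries 2 and 4 no gene of the 87 passed. When 1 array was left out, higher genes ranged from 0 to 4 and lower ones from 0 to 2, above 0 without heat-exposed ovary 1 or 3 and, for higher genes, without heat-exposed testis 5, 7, 9 or 10.

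Deviations of same-numbered arrays from their group means correlated with r from -0.08 to 0.15. Differently numbered arrays were not correlated for comparison, so these values cannot decide whether replicate numbers pair the samples. Causes of these shifts were not tested. The lowest signals, such as ndufs8b in control ovaries, lay below the lower quartile of all entries, where a signal near background limits the fold.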
